A study of Homo sapiens with 7 samples.

Results

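SRC family kinases are nonreceptor tyrosine kinases that dasatinib binds beside its intended target, BCR::ABL1. The genes described here are 7 family members (SRC, YES1, LYN, FYN, LCK, FGR and BLK), CSK, which restrains the family, and BTK, a TEC family kinase that dasatinib also binds. They were found by symbol and NCBI gene ID, and all 9 were present among the 25702 gene IDs counted. K562 is an established chronic myeloid leukemia line carrying BCR::ABL1, labelled as erythroblast. The control group was made up of a drug naive K562 line and a line kept in the DMSO vehicle, and the dasatinib resistant (DasR) lines were K562 cells grown in rising dasatinib and sampled at 10, 15 and 25 nM (early stage) or at 50 and 200 nM (late stage). The DMSO line was kept in parallel, all lines carry BCR::ABL1, the DasR lines come from the same escalation, and the ABL1 kinase domain alleles of each line were not analysed here. Each line gave 1 RNA-seq library of 20059656 to 27844799 counted reads, and different lines of 1 group stand in for replicates, so that dose adds to the spread within each stage.

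A SRC family kinase is tethered to the inner face of the plasma membrane and is held shut when CSK phosphorylates a tyrosine in its tail. Membrane phosphatases such as PTPRC (CD45) and PTPRA remove that phosphate and release the kinase, while PTPN22 removes the phosphate of the active state. LYN is the family member best known in myeloid cells, LCK and FYN in T cells, BLK in B cells, and SRC, YES1 and FYN occur in most tissues. BTK is known from B cells and myeloid cells, where it acts after LYN and SYK.

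Promoter sequence is shown for FYN and YES1, which moved in opposite directions in the early stage lines. RefSeq promoter windows were found for 6 of the 9 genes (FYN, YES1, CSK, BTK, LCK and FGR). Those printed are the 250 bases before the first listed start, on the reverse strand, in GRCh38.p14, at chr6:111873453-111873702 for FYN and chr18:812243-812492 for YES1. Capitals mark the GC box letters GGGCGG or, on the other strand, CCGCCC.
FYN: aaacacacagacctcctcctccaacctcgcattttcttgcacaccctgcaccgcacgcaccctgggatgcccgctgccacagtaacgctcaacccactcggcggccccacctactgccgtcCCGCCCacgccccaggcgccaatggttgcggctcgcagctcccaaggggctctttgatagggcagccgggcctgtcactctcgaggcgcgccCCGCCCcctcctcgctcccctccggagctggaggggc
YES1: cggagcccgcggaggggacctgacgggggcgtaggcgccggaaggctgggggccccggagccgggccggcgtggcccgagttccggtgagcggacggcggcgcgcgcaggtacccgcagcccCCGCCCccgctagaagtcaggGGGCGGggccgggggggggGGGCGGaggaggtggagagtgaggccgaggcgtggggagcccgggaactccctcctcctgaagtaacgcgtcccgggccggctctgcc
The FYN window held 2 GC boxes and the YES1 window 3, against at least 1 in 42.6% of all 35116 RefSeq windows of this length. G and C made up 68.8% of the FYN window and 79.2% of the YES1 window, where the median over all windows was 58.0%. Neither window held the GATA letters AGATAA, the E-box CACGTG, the ETS letters GGAAGT or TATAAA on either strand, and FYN held CCAAT (on the strand shown or its complement) 1 time, as did 32.0% of all windows. Other listed starts of FYN differed, from 0 to 8 GC boxes, and counts per gene do not show which start was used.

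Of the 9 genes, 6 were expressed above the limit of 10 CPM (reads of a gene scaled to a library total of 1000000) in at least 2 libraries and were tested. LCK, FGR and BLK were not: LCK had 1 count in the 50 nM line and 0 in the other lines, FGR had 2 counts in the drug naive line, 1 in the DMSO line and 0 in every DasR line, and BLK had 0 counts in all 7. A count of 0 allows up to 3 counts, or 0.108 to 0.150 CPM depending on the library, for counting error only. These lymphoid and myeloid kinases were therefore at or below the floor in control and resistant lines alike, and no fold change is given for them.

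Levels were compared between genes per kilobase of the gene length that the authors deposited. Over the 7 lines YES1 was highest, at 60.8 ± 21.2 CPM per kb (SD, n = 7 lines), followed by LYN at 45.2 ± 9.17, BTK at 42.2 ± 7.85, FYN at 25.0 ± 6.28, CSK at 22.5 ± 3.04 and SRC at 2.92 ± 1.21. YES1 lay above LYN and BTK by less than its own SD over the lines, a spread that includes differences between the stages. Within single lines, by the deposited lengths, YES1 was above BTK in every line and above LYN in every line except 15 nM. LYN and BTK did not differ beyond their spread, nor did FYN and CSK. By the deposited lengths the order also differed between groups: FYN was below CSK in the controls (means of 16.5 and 22.9 CPM per kb) but above it in the early (29.0 and 23.5) and late stage lines (27.6 and 20.8), and at 15 nM LYN (33.6) and YES1 (33.0) were nearly level. The order of LYN, FYN and CSK depended on the length used: per kilobase of the GENCODE canonical transcript LYN was at 23.8 ± 4.83, below BTK at 42.7 ± 7.96, and FYN, at 19.7, was below CSK, at 22.5. SRC, the gene that names the family, was lowest of the 6 by either length.

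In the early stage lines, transcripts of YES1 and LYN were lower and those of FYN higher than in the controls. These were 3 of the 6 genes tested, while 18.0% of all 10452 genes tested passed the same threshold, which was an FDR of 0.005 in the quasi-likelihood test of edgeR (7.92% higher and 10.1% lower). At an FDR of 0.05, 5 of the 6 passed, against 46.5% of all genes. With the 10, 15 or 25 nM line left out, 0 of the 6 passed, and fewer of all 10452 genes did too, at 1111, 889 and 535. SRC had the lowest early stage level relative to controls but missed the threshold, and BTK and CSK did not pass it either. The early stage lines of SRC, YES1, LYN and BTK were all below both controls, as were those of 34.0% of all genes, and those of FYN were all above, as for 35.9%. Fewer cells with a transcript and less of it in each cell cannot be told apart in these bulk libraries.

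**Figure D1:**
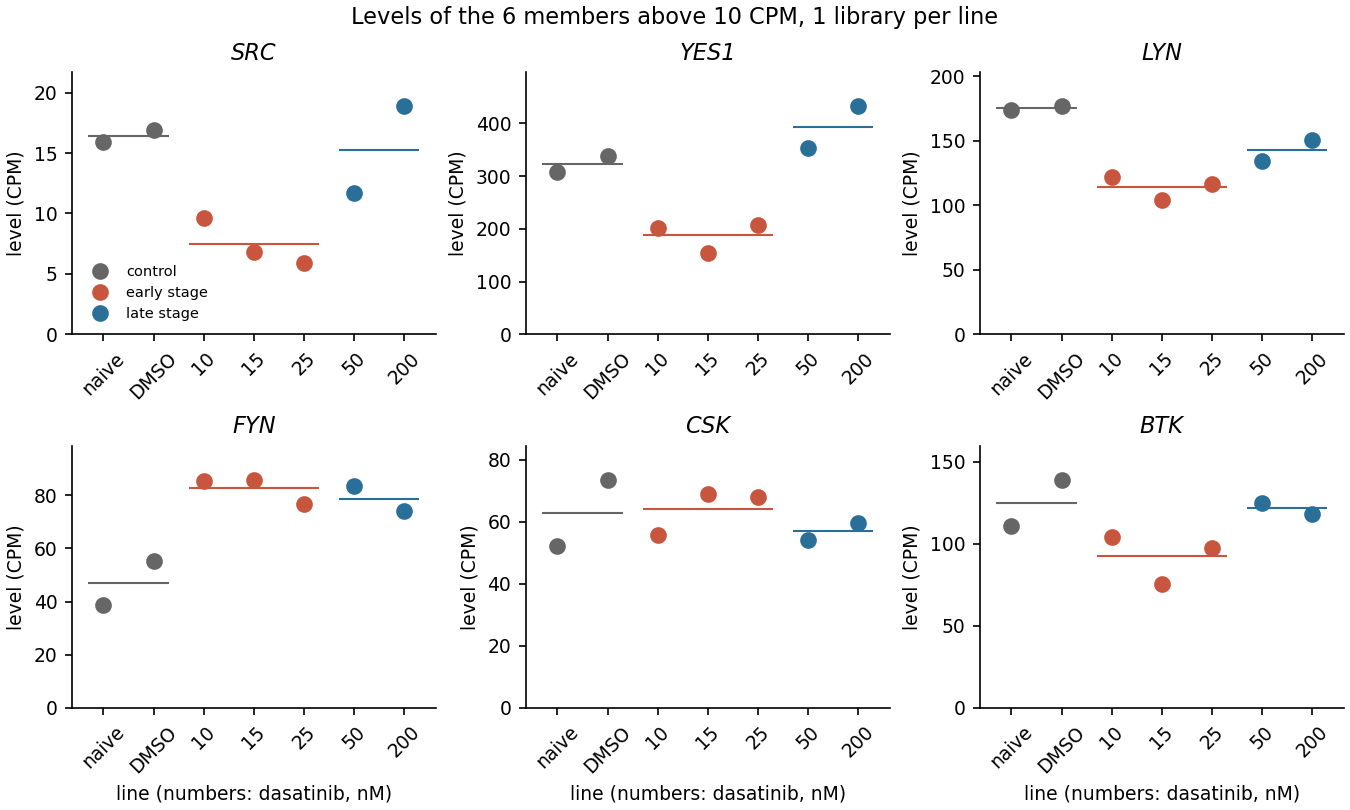
Level of each of the 6 expressed genes (CPM, linear axis from 0) in each line, 1 point per library, with horizontal bars at group means. SRC, YES1, LYN and BTK dip at 10, 15 and 25 nM, FYN is higher in every DasR line than in both controls, and the groups overlap for CSK.

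YES1 (gene ID 7525, GRCh37 chromosome 18 from 721588 to 812547, reverse strand) is a widely expressed member closely related to SRC. The drug naive line had 308 CPM and the DMSO line 338 CPM. The 10, 15 and 25 nM lines had 201, 155 and 208 CPM, and the 50 and 200 nM lines 352 and 432 CPM. Every early stage line was thus below the controls and every late stage line above them. The early stage log2 fold change was -0.79 (standard error 0.15, FDR 0.00491 by edgeR's quasi-likelihood test). The FDR rose above 0.005 without either control or any early stage line, and without the 50 nM line, with values of 0.00501 to 0.0301. It also did so with RLE scaling (0.00522), with library totals only (0.00527) and with a limit of 1 CPM (0.00623). The late stage difference from controls was 0.26 on the log2 scale (standard error 0.16, FDR 0.253) and did not pass.

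Between late and early stage lines, YES1 differed by 1.05 on the log2 scale (standard error 0.15), higher in both late stage lines than in all 3 early stage lines. Its FDR of 0.0167 was the smallest reached by any gene in that comparison, shared with other genes, and missed 0.005 (edgeR's quasi-likelihood test). In that comparison 0 genes (0%) passed 0.005 by edgeR, 3450 genes (33.0%) had an unadjusted p under 0.05, 12.7% passed an FDR of 0.05, and DESeq2 called 1135, YES1 among them. The other members did not pass 0.005 there, although SRC, with a difference of 1.02 (standard error 0.27, FDR 0.0495), was also higher in every late than in every early stage line, as were YES1, LYN, BTK and 26.8% of all genes; no member was lower throughout, as were 26.4%.

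LYN (gene ID 4067, chromosome 8 from 56792394 to 56926728, forward strand), the member best known in myeloid cells, was at 174 and 177 CPM in the drug naive and DMSO lines. It was at 122, 104 and 117 CPM at 10, 15 and 25 nM, and at 134 and 151 CPM at 50 and 200 nM. The controls were close together, all DasR lines lay below them, and the late stage lines lay above the early ones without reaching the controls. The early stage log2 fold change was -0.63 (standard error 0.10, FDR 0.00266 by edgeR's quasi-likelihood test). The FDR rose to between 0.00539 and 0.0226 without either control or without any 1 of the early stage lines. The late stage difference was -0.32 (standard error 0.11, FDR 0.0587) and did not pass.

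FYN (gene ID 2534, chromosome 6 from 111981535 to 112194655, reverse strand) differed between the controls, with 38.6 CPM in the drug naive and 55.2 CPM in the DMSO line. The early stage lines had 85.4, 85.7 and 76.7 CPM at 10, 15 and 25 nM, and the late stage lines 83.4 and 74.1 CPM. Every DasR line was above both controls, and the early and late stage lines overlapped. The early stage log2 fold change was 0.81 (standard error 0.15, FDR 0.00480 by edgeR's quasi-likelihood test), and the FDR rose to between 0.00582 and 0.0255 without the drug naive line or without any 1 DasR line. It was also above 0.005 with a limit of 1 CPM (0.00516), with library totals only (0.00567) and with only the 2 groups compared (0.00586). Against the DMSO line alone, without the drug naive line, the log2 fold change was 0.60, and against the drug naive line alone 1.05. Against the controls the late stage lines differed by 0.73 (standard error 0.16, FDR 0.0135), which did not pass 0.005 but passed 0.05.

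SRC (gene ID 6714, chromosome 20 from 35973088 to 36034453, forward strand) was at 15.9 and 16.9 CPM in the controls, 9.64, 6.79 and 5.93 CPM at 10, 15 and 25 nM, and 11.7 and 18.9 CPM at 50 and 200 nM. The late stage lines lay on both sides of the controls. The early stage log2 fold change was -1.15 (standard error 0.27, FDR 0.0118 by edgeR's quasi-likelihood test), the lowest among the 6 genes, while DESeq2 called it (adjusted p 0.000662). The late stage value was -0.13 (standard error 0.30, FDR 0.769).

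CSK (gene ID 1445, chromosome 15 from 75074421 to 75095538, forward strand), the kinase of the inhibitory tail tyrosine, was at 52.2 and 73.5 CPM in the drug naive and DMSO lines. The DasR lines lay at 55.8, 69.0 and 68.0 CPM in the early and 54.3 and 59.5 CPM in the late stage, all within the range of the controls. The early stage log2 fold change was 0.02 (standard error 0.15, FDR 0.926 by edgeR's quasi-likelihood test), and its sign changed when single libraries were left out.

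BTK (gene ID 695, chromosome X from 100604326 to 100645784, reverse strand) was at 111 and 139 CPM in the controls. It was at 104, 75.2 and 97.6 CPM in the 10, 15 and 25 nM lines and at 125 and 118 CPM in the 50 and 200 nM lines, within the range of the controls. The early stage log2 fold change was -0.45 (standard error 0.15, FDR 0.0474 by edgeR's quasi-likelihood test) and did not pass 0.005. The late stage value was -0.06 (standard error 0.17, FDR 0.812).

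**Figure D2:**
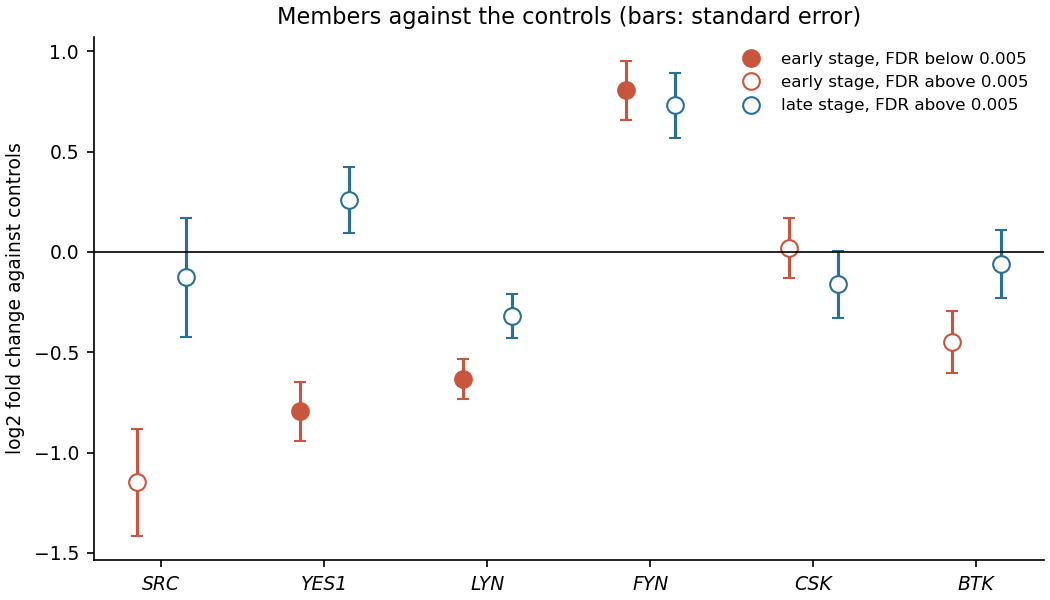
Log2 fold change against the 2 controls for the 6 expressed genes in early stage (red) and late stage (blue) lines, with bars of 1 standard error from edgeR and filled points where the FDR was below 0.005. YES1, LYN and FYN in the early stage are filled and no late stage point is, and FYN is at 0.81 and 0.73 in the 2 stages.

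Late in the escalation edgeR called 0 of the 6 genes against the controls at an FDR of 0.005, where 7.98% of all genes did. At an FDR of 0.05 FYN passed, as did 33.9% of all genes, at an unadjusted p under 0.05 LYN and FYN did, as did 45.9%, and DESeq2 called FYN. FYN and YES1 were above both controls in every late stage line, as were 34.3% of all genes, and LYN was below, as were 33.4%. The median log2 fold change of the 6 genes was -0.54 in the early and -0.09 in the late stage lines, against 0.0031 and -0.0036 over all genes tested. Both stages were compared with the same 2 controls. Taking all 5 DasR lines as 1 group, no member passed, while 845 of all 10452 genes tested did. The log2 fold changes were -0.28 for YES1 (FDR 0.610), -0.50 for LYN (FDR 0.0299) and 0.78 for FYN (FDR 0.00692) by edgeR's quasi-likelihood test.

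The summed level of the 7 family members was 536 and 586 CPM in the controls, 417, 351 and 407 CPM at 10, 15 and 25 nM, and 581 and 676 CPM at 50 and 200 nM. The sum was lowest in the 15 nM line and highest in the 200 nM line. Divided by CSK, it was 10.3 and 7.98 in the controls, 7.48, 5.09 and 5.99 in the early stage lines and 10.7 and 11.4 in the late stage lines. Since CSK differed between the controls, this ratio spread as widely between the controls as between the DMSO and 25 nM lines.

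**Figure D3:**
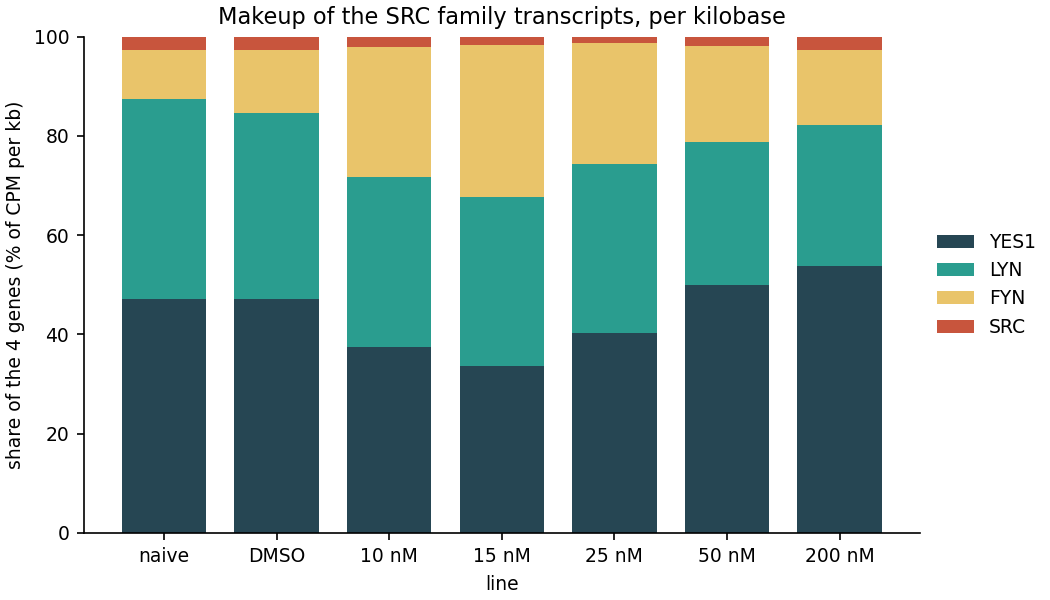
Share of YES1, LYN, FYN and SRC in their summed CPM per kilobase (percent, authors' gene lengths), 1 bar per line. FYN takes 9.73% and 12.7% in the controls and 30.6% at 15 nM, and YES1 takes 33.6% at 15 nM and 53.8% at 200 nM.

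Per kilobase, the makeup of the family differed between lines. FYN made up 9.73% (drug naive) and 12.7% (DMSO) of the YES1, LYN, FYN and SRC total. It was 26.2%, 30.6% and 24.4% at 10, 15 and 25 nM, and 19.4% and 15.2% at 50 and 200 nM, above both controls in every DasR line. LYN had shares of 40.4% and 37.4% in the controls and was below both in all DasR lines, at 34.4%, 34.1% and 34.2% in the early and 28.8% and 28.5% in the late stage lines. At 15 nM the 3 genes YES1, LYN and FYN were nearly equal, at 33.6%, 34.1% and 30.6%, which holds for the deposited lengths, since LYN would be lower per kilobase of its canonical transcript. Shares sum to a whole, so that each depends on the other genes, and the 1 library per line gives no error for a single line.

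Among the 6 genes SRC and YES1 varied most over the 7 lines, by 1.64 and 1.47 on the log2 scale, and CSK least, by 0.43. The 3 genes most like YES1 by Pearson correlation of log2 CPM over the 7 lines, among 10451 others, were TPMT, a thiopurine methyltransferase (r = 0.999), DIAPH1, a formin of actin assembly (r = 0.996), and SH2B3, an adaptor that restrains cytokine signalling (r = 0.996). DIAPH1 had control levels of 651 and 717 CPM, with 388, 305 and 452 CPM in the early stage lines and 793 and 973 CPM in the late stage lines. Those most like SRC were VPS28, of the endosomal sorting machinery (r = 0.988), SHISA5 (r = 0.986) and BCKDK, a mitochondrial kinase of branched-chain amino acid breakdown (r = 0.981). Between members, SRC and LYN had r = 0.888 and LYN and FYN r = -0.849. These correlations share the same 7 libraries and groups and are given as description.

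A wider list of 43 regulators, relatives and partners of these kinases was drawn up by role. Of these, 31 were tested. In the early stage lines 2 rose, 1 fell and 28 did not pass, or 9.68% of those tested against 18.0% of all genes. Late in the escalation 3 rose, 1 fell and 27 did not pass, or 12.9% against 7.98% (3.42% higher and 4.56% lower). The median log2 fold change of the list was -0.09 in the early and 0.18 in the late stage lines.

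The phosphatases that rose act on the family directly. PTPRA, which removes the inhibitory tail phosphate, was at 76.2 and 77.8 CPM in the controls, against 134, 135 and 143 CPM in the early and 142 and 169 CPM in the late stage lines. All 5 DasR lines were above both controls, with log2 fold changes of 0.82 (standard error 0.10, FDR 0.000983) and 0.99 (standard error 0.10, FDR 0.00131) by edgeR's quasi-likelihood test. The early stage FDR of PTPRA rose to 0.0108 without the drug naive, 0.00887 without the DMSO and 0.00588 without the 25 nM line, and the late stage FDR to 0.0125 and 0.00914 without the drug naive and the DMSO line and 0.00727 with only the 2 groups compared. PTPN22, which works with CSK to remove the activating phosphate, was at 11.8 and 9.28 CPM in the controls, against 22.7, 18.0 and 20.0 CPM in the early and 27.4 and 28.2 CPM in the late stage lines. Its log2 fold changes were 0.93 (standard error 0.17, FDR 0.00455) and 1.38 (standard error 0.18, FDR 0.00246) by the same test, and the early stage FDR exceeded 0.005 when any 1 library was left out (0.00683 to 0.0280). The late stage FDR did so without either control, the 25 nM line or either late stage line (0.00761 to 0.0132), and with only the 2 groups compared (0.00823). PTPN1 and PTPN11, further phosphatases linked to the family, differed from the controls by 0.01 and -0.11 in the early stage, and neither passed in any comparison. PTPN6 (SHP-1) was under the expression limit, with 10.6 CPM at most, in the 10 nM line.

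GAB2, a docking protein that carries signals from BCR::ABL1 through GRB2, fell in both stages. It was at 378 and 326 CPM in the controls, against 76.8, 73.9 and 70.4 CPM in the early and 78.4 and 82.1 CPM in the late stage lines, so that the DasR lines lay close together and far below the controls. The log2 fold changes were -2.27 (standard error 0.10, FDR 7.76e-05) and -2.16 (standard error 0.12, FDR 0.000219) by edgeR's quasi-likelihood test, and both stayed below 0.005 without any 1 library. DOK2, an adaptor that restrains tyrosine kinase signalling in myeloid cells, was at 5.14 and 4.74 CPM in the controls, against 13.7, 8.51 and 13.5 CPM in the early and 32.9 and 39.6 CPM in the late stage lines. The late stage rise was 2.85 on the log2 scale (standard error 0.27, FDR 0.000893), and the FDR rose to 0.0114 without the drug naive line and to 0.00824 without the DMSO line. The early stage difference of 1.25 had an FDR of 0.00585 and did not pass. Between late and early stage lines DOK2 differed by 1.60 (standard error 0.22). Its FDR of 0.0167 there, by edgeR's quasi-likelihood test, was the same as that of YES1 and did not pass.

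**Figure D4:**
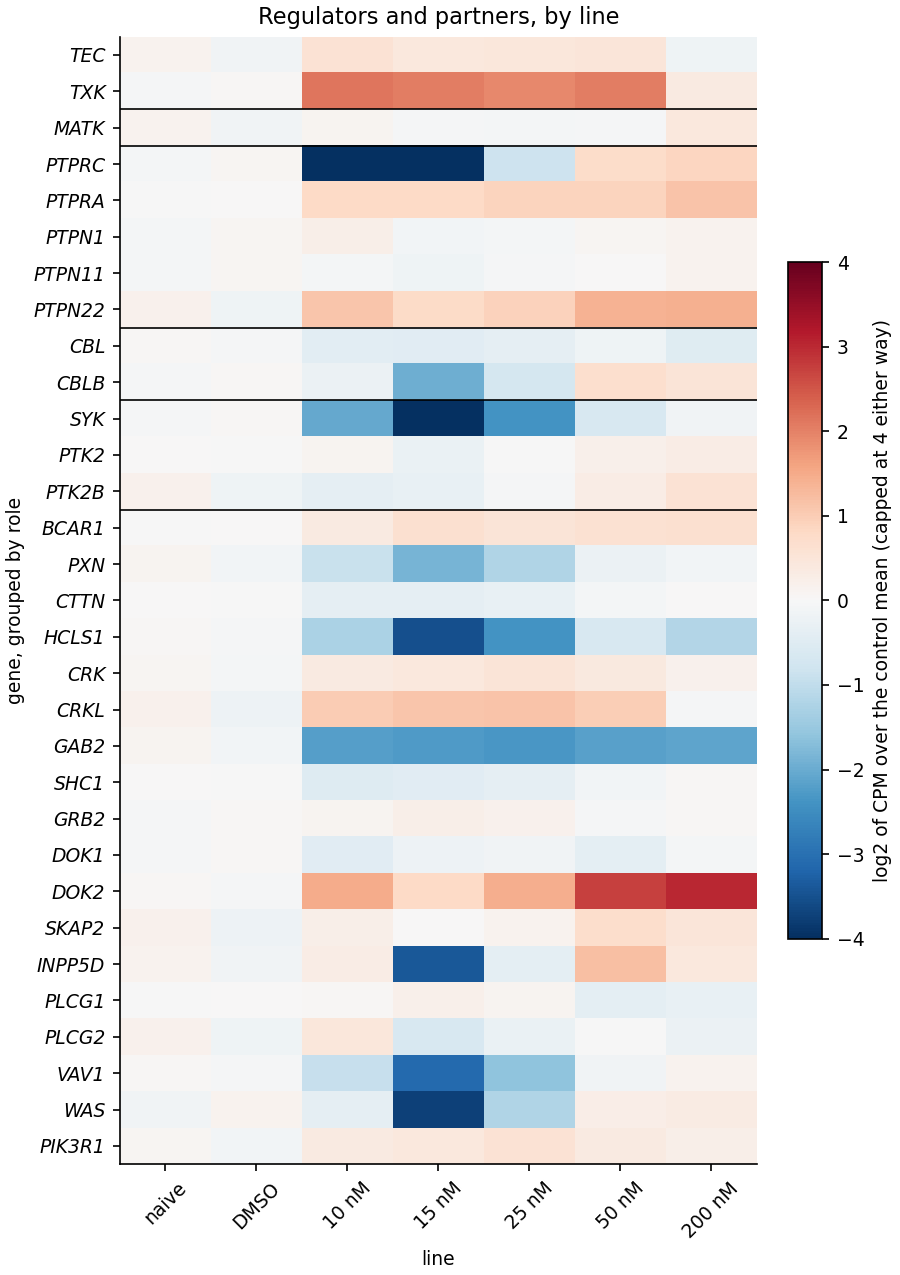
Log2 of CPM over the control mean for the 31 tested genes of the wider list (rows, grouped by role with black lines between groups) in the 7 lines (columns). The scale is capped at 4 in either direction: PTPRC at 10 and 15 nM and SYK at 15 nM lie below the cap. GAB2 is low and PTPRA and PTPN22 are high in all 5 DasR lines, and PTPRC, SYK, HCLS1, VAV1, WAS and INPP5D are lowest at 15 nM.

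Of the 31 tested genes of the wider list, 13 had their lowest level in the 15 nM line, as did 18.4% of all genes tested. They were PTPRC, SYK, HCLS1, VAV1, WAS, INPP5D, PXN, CBLB, PLCG2, PTK2, CTTN, PTPN1 and PTPN11, and were picked out after their values were seen. Among list genes known from blood cells, PTPN22, DOK2 and TXK were higher at 15 nM, at 18.0, 8.51 and 17.8 CPM, than in both controls, and MATK and SKAP2, at 28.1 and 41.7 CPM, lay between the controls. PTPRC, the CD45 phosphatase, was at 174 and 195 CPM in the controls, 11.2, 0.898 and 103 CPM at 10, 15 and 25 nM, and 305 and 333 CPM at 50 and 200 nM. The groups did not overlap, yet the early stage log2 fold change of -2.30 had a standard error of 1.26 and an FDR of 0.172 by edgeR's quasi-likelihood test. Over 15 alternatives the early stage value of PTPRC ran from -4.94 to -0.31. SYK, a kinase activated by LYN at immune receptors, was at 80.7 and 86.3 CPM in the controls, against 20.3, 1.11 and 15.8 CPM in the early and 54.0 and 76.0 CPM in the late stage lines (early stage log2 fold change -2.77, standard error 0.81, FDR 0.0270). HCLS1, a LYN substrate that binds actin, had 49.3 and 46.1 CPM without dasatinib and 19.9, 4.20 and 9.02 CPM at 10, 15 and 25 nM, with an FDR of 0.0155 by the same test.

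VAV1 and WAS, which carry the signal to the actin skeleton, had 4.45 and 2.30 CPM at 15 nM against control means of 38.4 and 30.3 CPM. INPP5D (SHIP-1), an inhibitory lipid phosphatase, had 3.09 CPM at 15 nM but 40.0 CPM at 10 nM, above both controls. None of these genes passed 0.005 in any of the 3 comparisons by edgeR's quasi-likelihood test. PXN (paxillin), a focal adhesion substrate, was also lowest at 15 nM, with 148 and 127 CPM in the controls, against 74.1, 37.6 and 59.5 CPM in the early and 117 and 126 CPM in the late stage lines. Its early stage log2 fold change was -1.28 (standard error 0.25, FDR 0.00617 by the same test).

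CRKL, the adaptor whose phosphorylation reports BCR::ABL1 activity, had control levels of 742 and 576 CPM, with 1328, 1434 and 1460 CPM in the early stage lines, 1293 CPM at 50 nM and 633 CPM at 200 nM, where it lay between the controls. TXK, a TEC family kinase, had a similar order, with control levels of 4.14 and 4.45 CPM, then 18.9, 17.8 and 16.4 CPM in the early stage lines, 17.6 CPM at 50 nM and 5.56 CPM at 200 nM. Early stage FDRs were 0.0196 for CRKL and 0.00988 for TXK by edgeR's quasi-likelihood test, so that neither passed. Both were also picked out after their values were seen.

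Of the other SRC-like kinases, FRK, PTK6 and SRMS did not reach the expression limit, with at most 15, 43 and 6 counts in any line. BMX, a TEC family kinase under the limit, was at 1.33 and 2.50 CPM in the controls and ranged from 0.754 CPM at 15 nM to 10.8 CPM at 50 nM. PAG1, the membrane adaptor that brings CSK to its substrates, was under the limit with 79 and 57 counts in the controls and between 3 and 15 counts in the DasR lines. In a fit with a limit of 1 CPM its early stage log2 fold change was -2.95 (standard error 0.54, FDR 0.00539 by edgeR's quasi-likelihood test).

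The label was checked against marker genes. The 7 erythroid genes reported (GATA1, TAL1, KLF1, HBG1, HBG2, HBZ and TFRC) were all above the limit in these lines. Their summed level was 3148 and 2633 CPM in the controls, against 8688, 8755 and 7132 CPM in the early and 5055 and 3736 CPM in the late stage lines, with HBG2 the most abundant over all lines and HBZ in the 15 and 25 nM lines (HBG1 and HBG2 are near-identical, so that reads may be split between them). The sum was higher in every DasR line than in both controls. TAL1, KLF1, HBG1, HBG2, HBZ and TFRC were each above both controls in all 3 early stage lines and at 50 nM. At 200 nM HBG2 (1205 CPM) and HBZ (60.0 CPM) lay between the controls. GATA1 did not share this in the early stage, at 165, 206 and 191 CPM against 201 and 217 CPM in the controls, and TAL1 was below both controls at 200 nM (156 CPM). The sum was highest in the early stage lines, where YES1, LYN and SRC were low, and its part in the kinase results was not tested. Of 5 T cell markers CD3D alone passed the limit, and CD2 was at 3 counts or fewer in every line. Their summed level was 17.3 and 8.99 CPM in the controls. It was 6.19, 4.92 and 12.3 CPM in the early and 32.6 and 33.2 CPM in the late stage lines. CD3D was most of this sum. CD3E and CD3G had higher means in the early stage than in the controls (1.18 and 1.48 against 0.175 and 0.491 CPM). CD247 had a lower one (0.138 against 0.274 CPM). Of the 4 B cell markers reported none passed, and CD79A was the most abundant of these, with at most 8 counts in any line. Both MS4A1 and PAX5 were at 3 counts or fewer in every line. Of 5 myeloid markers only LYZ passed, and their summed level was 55.1 and 40.6 CPM in the controls, against 103, 26.0 and 43.1 CPM in the early and 94.5 and 99.4 CPM in the late stage lines. LYZ was nearly all of it and, like PTPRC, was lowest at 15 nM (24.6 CPM) and above both controls in the late stage lines, and its part in those results was not tested. Markers MPO and ELANE were at 3 counts or fewer. The 5 stromal markers summed to 5.05 and 19.6 CPM in the controls and to between 5.05 and 11.2 CPM in the DasR lines, with COL1A1 the most abundant over all lines and none past the limit, although COL1A2 had 344 counts in the DMSO line and 42 or fewer elsewhere.

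In the GENCODE annotation of GRCh37, YES1, BLK, PTPN22, PTPN1, PTPN11, GAB2, CBLB, PXN, CTTN, SRMS, INPP5D and PLCG1 share exon bases with genes on the opposite strand. The strand setting of the counting is not given in the sources used here, so that reads of both genes cannot be told apart for these. PLCG2 shares exon bases with a gene on the same strand.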

How the data were processed

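The authors aligned paired reads of 75 bases to hg19 with STAR and, per the labels, counted reads per gene with featureCounts (versions not given in the sources used here), and deposited raw counts for 25702 gene IDs in 7 libraries. Directional libraries were depleted of ribosomal RNA. The authors also deposited 2 tables of their own comparisons that hold fold changes, average abundances and test results. None of those values was used, only symbols, chromosomes and gene lengths.

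Stages were grouped by dose as the study grouped them, a choice it made by clustering these libraries. The quasi-likelihood functions of edgeR 4.0.16 (R 4.3.3) were fitted to the 10452 genes that reached 10 CPM in 2 or more libraries, using TMM factors and a mean for each of the 3 groups, and p-values were adjusted by Benjamini-Hochberg and called at an FDR of 0.005. Standard errors were taken from the fold change and its F statistic. The common dispersion was 0.0260. CPM given per line are counts over the library total. Correlations used TMM-scaled log2 CPM with a prior count of 2. DESeq2 1.42.0 and limma 3.58.1 (voom), other scalings and limits, and leaving out each library were alternatives. The fit was tested on simulated data.

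Lines of a group differed by more than sampling noise (chi-square per degree of freedom 16.9 to 53.3 over 5 pairs). No line has a repeat library, so p-values measure only the spread between these lines. Genes named are the 9 members, list genes past the threshold in any comparison or reaching 10 CPM in 1 line, the marker genes, and the 3 genes most like each of the 2 most variable members; all other genes named in the text, PAG1, PTPN1, PTPN11, FRK, PTK6 and SRMS among them, were picked after their values were seen. The members and lists were chosen with earlier results of these data known. Positions are from GENCODE v44 lifted to GRCh37, the build of hg19. Protein sequences were not used here. A few genes of the lists are not reported here and were left out of the sums and counts.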

Additional observations from a re-analysis of the deposited data

Results flagged for a closer look

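Among the members and wider list genes that were tested, 5 lay on opposite sides of both controls in the 2 stages, in every line (1 of 6 members and 4 of 31 list genes), as did 400 of all 10452 genes tested, or 3.83%. YES1 and PTPRC were below the controls in all 3 early stage lines and above them in both late stage lines. Their late minus early stage log2 differences were 1.05 (FDR 0.0167) and 3.07 (FDR 0.145) by edgeR's quasi-likelihood test. Over the alternatives the PTPRC difference ran from 2.485 to 5.71. CBLB, a ubiquitin ligase that tags active kinases, and WAS had the same order, with differences of 1.39 (FDR 0.0646) and 1.51 (FDR 0.180). PLCG1, a phospholipase of receptor signalling, had the opposite order, at 74.7 and 76.7 CPM in the controls, 78.7 to 87.7 CPM in the early and 58.2 and 61.4 CPM in the late stage lines, with a difference of -0.47 (FDR 0.0196). None of these differences passed 0.005. No group held enough lines for a test of outlying libraries.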

How the results depend on the processing

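No paired analysis was possible because no control library is matched to any single DasR line. Of 984 values under the alternatives, which were run for the 6 tested members and 15 of the 31 tested list genes, 869 kept their direction and their side of the threshold, 52 missed a threshold passed before, 44 passed one missed before and 19 changed sign. Calls rest on few lines, and no line has a repeat library to separate line from library; the cause of these shifts was not tested. DESeq2 gave no adjusted p for PTPRC. GAB2 passed in both stages under every alternative run.

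In the early stage 1881 genes, 3 members and 3 list genes passed. The members were 1 with a limit of 1 CPM, 1 with library totals only, 4 with DESeq2 (SRC added), 2 with RLE scaling, 2 with only the groups compared, 0 with all DasR lines as 1 group and 5 at an FDR of 0.05. The list genes were 7 with no filter, 10 with DESeq2 and 16 at 0.05, and all genes 3548 with DESeq2, 845 with all DasR lines as 1 group and 4865 at 0.05. Leaving out 1 library gave 208 to 2066 genes, 0 to 2 members and 1 to 5 list genes, lowest for all genes without the drug naive line (208), then without the DMSO line (529) and the 25 nM line (535), with 889 without the 15 nM and 1111 without the 10 nM line. In the late stage 834 genes, 0 members and 4 list genes passed. All genes were 1287 with no filter, 2503 with DESeq2, 257 with only the groups compared and 3542 at 0.05. Members were 1 with DESeq2 and 1 at 0.05, and list genes 2 with only the groups compared, 2 with all DasR lines as 1 group and 7 at 0.05. Leaving out 1 library gave 33 to 596 genes, 0 members and 1 to 4 list genes, lowest without the drug naive line (33) and the DMSO line (110). Where a group kept 1 line, that line was assumed to vary like the other groups. Between the stages 0 genes passed, with 295 genes, 1 member and 1 list gene with no filter, 1135, 1 and 6 with DESeq2, 1328, 2 and 6 at 0.05, and 0 to 198 genes, 0 members and 0 list genes without 1 library, the 198 without the 50 nM line.

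Among these genes, signs changed only for values that had not passed. In the early stage CSK ran from -0.18 (without the drug naive line) to 0.25 (without DMSO) when 1 library was left out, and was at -0.050 with all DasR lines as 1 group, where INPP5D was at 0.18 and PLCG1 at -0.060. That grouping gave, beside the late stage values, -0.28 for YES1, -0.31 for PTPRC, -0.44 for WAS and -0.095 for CBLB. VAV1 in the late stage was at 0.013 with a limit of 1 CPM and 0.030 with no filter. Without 1 library the late stage values ran from -0.16 to 0.098 for VAV1, -0.36 to 0.072 for CSK, -0.18 to 0.079 for BTK, -0.50 to 0.17 for SRC and -0.094 to 0.96 for CRKL, and FYN, late against early stage, from -0.18 to 0.017.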
